A study of Mus musculus with 9 samples.

Results

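The extracellular matrix and integrin genes are those whose array annotation gave exactly 1 gene symbol of the collagen, laminin, integrin, metalloproteinase, Timp, fibrillin, fibulin or nidogen families, or the symbol Fn1, Sparc, Dcn or Bgn. The rule took 46 of 7117 genes with a probe, measured by 66 of 16128 probes. No fibrillin gene was among them. They were measured in total RNA of whole testis from juvenile mice, as ratios between a Spo11-/- and a wild-type testis hybridised together, in Cy3 and Cy5, to 1 two-colour spotted cDNA array. At 15 days of age there were 4 arrays, all with knockout RNA in Cy3. At 12 days there were 5 arrays, with knockout RNA in Cy5 on replicates 1, 4 and 5 and in Cy3 on replicates 2 and 3. Replicate numbers follow the order of deposit and pair nothing. Strain, the structure of the Spo11 allele and the number of mice behind each sample are not given, nor whether any arrays at 12 days shared RNA, so p-values measure the spread between arrays and may be too small. The Spo11 protein cuts DNA to start meiotic recombination, and male germ cells that lack it stop in meiosis.

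The matrix of the testis surrounds the seminiferous tubules, in which germ cells mature between Sertoli cells. Sertoli cells and the peritubular myoid cells around each tubule together build its basement membrane, a sheet of type IV collagen and laminin trimers bridged by nidogens. Fibrillar collagens and small proteoglycans lie in the interstitial tissue outside it, integrins anchor cells to these proteins, metalloproteinases cut them and Timp proteins inhibit metalloproteinases. In RNA of a whole testis, fewer cells of a type and less RNA per cell cannot be told apart.

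Which channel stands on top of the ratio could not be settled. A 15-day value above 0 means more RNA in wild type if the ratio was taken as Cy5 over Cy3, and more in the knockout if it was taken as knockout to wild type. Arrays with knockout RNA in Cy3 from both ages correlated below 0 over all probes. Between the 15-day arrays and 12-day replicate 3, r was -0.38 to -0.33, and for replicate 2 it was -0.25 to -0.11. Over the matrix and integrin genes these correlations were -0.27 to 0.14, across 38 to 43 genes that share arrays and are not independent replicates. With 12-day replicates 1, 4 and 5, whose knockout RNA was in Cy5, the 15-day arrays had r of -0.23 to 0.03 over all probes. So 15-day values are given with their sign as deposited, and turning it turns each of them from above to below 0. Values at 12 days are turned to knockout over wild type on the assumption of Cy5 over Cy3.

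The arrays differed in coverage, since 72.1% and 72.9% of probes had a value on 12-day replicates 1 and 2 and 86.8% to 91.3% on the other arrays. A log ratio holds no level, and no intensities were used, so the presence of the labelled tissue could not be checked from the levels of its markers, and no probe was annotated to Spo11. Of the 46 genes, 45 had a value on all 4 arrays at 15 days and 34 on all 5 arrays at 12 days. The platelet integrin gene Itga2b had no value at 15 days. Itgb3bp matches the family pattern by name only, as it encodes a centromere protein that binds an integrin tail and is no integrin subunit.

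At 15 days, where the comparison asks which transcripts differ in a testis that lacks Spo11, 6 of 45 matrix and integrin genes passed above 0 and 0 below. These were the integrin subunit gene Itga9, the laminin chain gene Lamb1, the inhibitor genes Timp2 and Timp3, the metalloproteinase gene Mmp23 and the type I collagen gene Col1a1, with means of 0.39 to 0.63 on the log2 scale. A gene passed at an adjusted p under 0.05 by limma with Benjamini-Hochberg adjustment over all features. That is 13.3% of the genes, against 4.04% of all genes tested that passed above 0 and 7.2% that passed below. At an unadjusted p under 0.05 in limma there were 9 genes above and 2 below 0, or 20% and 4.44%, against 11.5% and 17.2% of all genes. Over both directions together their share was thus below that of all genes at the unadjusted threshold, and above it at the adjusted threshold. The median of the 45 genes was 0.07 and that of all genes -0.02. Means ranged from -0.30 to 0.63, with 29 above and 16 below 0, and 18 lay within 0.1 of 0. The 4 arrays gave medians of 0.11, 0.06, 0.07 and 0.10 for the matrix and integrin genes, against -0.04, -0.04, -0.05 and -0.01 for all genes. Every 15-day array thus placed their median slightly above that of all genes.

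**Figure D1:**
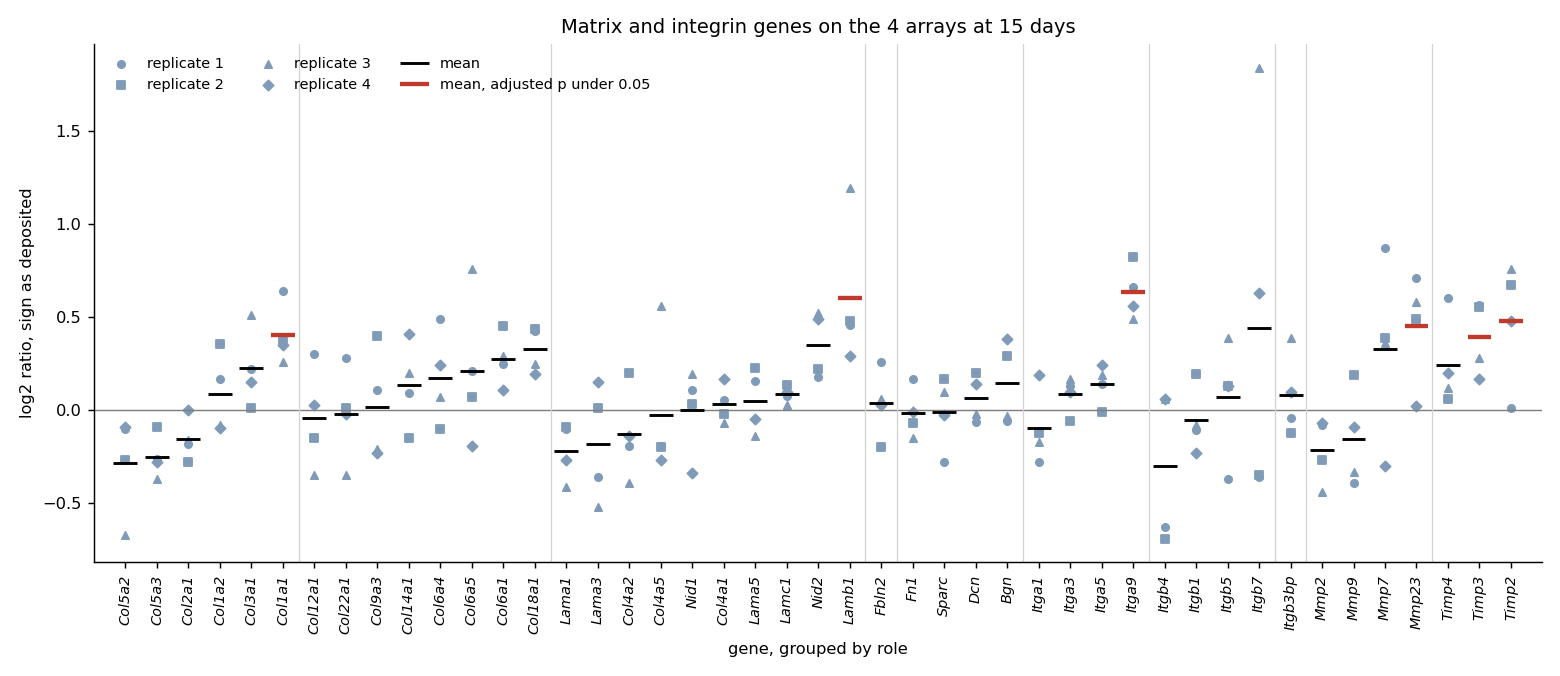
Log2 ratios at 15 days (y axis, sign as deposited) of each matrix or integrin gene (x axis, grouped by role), with 1 point per array and a bar for the mean of 4 arrays, red where the limma adjusted p was under 0.05. The 6 red bars lie between 0.39 and 0.63, and 18 of the 45 bars lie within 0.1 of 0.

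The differences were small. Itga9 and Lamb1 reached 1.5-fold and 0 genes reached 2-fold. Agreement between arrays over these genes was modest, with r from 0.15 to 0.56 for the 6 pairs of 15-day arrays, against 0.38 to 0.60 over all probes. The sign was the same on all 4 arrays for 12 genes above 0 and for 4 below. These are 26.7% and 8.89% of the 45, against 15.1% and 22.9% of all genes that lay above or below 0 on every array. The SD over arrays had a median of 0.22 and ran from 0.046 for the laminin chain gene Lamc1 to 1.04 for Itgb7, which encodes a leukocyte integrin subunit. Lamc1 values are averages of 3 probes whose means had both signs. Itgb7 lay at -0.36, -0.35, 1.84 and 0.63, so its mean of 0.44 rests on replicate 3 and it did not pass (limma adjusted p = 0.36).

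The 250 bases before the annotated start are shown for 4 of the 6 genes that passed, from RefSeq on assembly GRCm38.p6, 5′ to 3′ on the strand of the gene, to set the sequence at the starts of genes that passed in the same direction side by side. Capitals mark the GC box, spelled GGGCGG here, the box named CCAAT after its letters, and the TATA element, spelled TATAAA here. Each was searched as exact letters on both strands, so that a match may also read as the reverse complement, and none of the matches shown overlap. Itga9 lies at chr9:118711442-118711691 (+), Lamb1 at chr12:31265043-31265292 (+), Timp2 at chr11:118355412-118355661 (-) and Timp3 at chr10:86300162-86300411 (+).
Itga9: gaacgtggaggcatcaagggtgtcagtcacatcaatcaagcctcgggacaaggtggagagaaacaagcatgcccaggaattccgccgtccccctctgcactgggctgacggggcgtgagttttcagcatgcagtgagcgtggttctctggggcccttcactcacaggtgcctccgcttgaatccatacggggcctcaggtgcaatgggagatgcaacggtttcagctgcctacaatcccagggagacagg
Lamb1: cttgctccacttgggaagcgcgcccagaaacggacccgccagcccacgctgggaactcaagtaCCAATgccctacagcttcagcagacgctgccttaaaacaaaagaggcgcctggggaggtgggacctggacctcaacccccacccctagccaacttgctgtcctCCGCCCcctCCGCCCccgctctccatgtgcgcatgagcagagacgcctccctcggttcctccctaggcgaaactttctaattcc
Timp2: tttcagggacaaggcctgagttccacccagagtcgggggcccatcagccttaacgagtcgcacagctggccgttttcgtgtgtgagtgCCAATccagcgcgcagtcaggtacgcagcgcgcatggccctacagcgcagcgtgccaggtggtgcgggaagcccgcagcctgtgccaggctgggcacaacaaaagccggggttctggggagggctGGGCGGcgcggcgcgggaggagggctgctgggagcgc
Timp3: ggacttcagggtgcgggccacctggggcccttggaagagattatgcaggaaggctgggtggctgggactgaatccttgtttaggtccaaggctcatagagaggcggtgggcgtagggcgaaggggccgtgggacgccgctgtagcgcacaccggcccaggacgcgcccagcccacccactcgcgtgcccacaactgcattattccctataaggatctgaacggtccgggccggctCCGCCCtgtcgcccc
Itga9 held none of the 3 motifs, Lamb1 held 2 GC boxes and 1 CCAAT box, Timp2 held 1 of each and Timp3 held 1 GC box. Of the other genes that passed, Col1a1 had no start window in the RefSeq annotation used. Mmp23 has 2 annotated starts, whose windows are not printed and held none of the 3 motifs. Among all matrix and integrin genes, 30 matched the RefSeq table, with 34 start windows. A GC box stood in 55.9% of these windows (19 of 34), against 32.7% of all 32851 windows of the same length. The latter came from 27025 genes of the RefSeq table, not only from genes with a probe. A CCAAT box stood in 38.2% against 33.8%, and TATAAA in 5.88% against 12.4%. The median GC content was 58.8% in their windows and 52.4% in all windows. A match of letters describes the sequence and is not a binding site.

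Among the integrins, the receptors that bind matrix proteins, Itga9 was the gene that passed. Its product pairs with the beta 1 chain and binds tenascin and other matrix ligands. Itga9 lay at 0.66, 0.82, 0.49 and 0.56 on replicates 1 to 4. All 4 arrays were well above 0, and the mean of 0.63 (SE 0.10, n = 4, 95% interval 0.40 to 0.87, 1.55-fold) had the smallest p of the 45 genes (limma adjusted p = 0.0088). It passed without each replicate in turn, with means of 0.57 to 0.68, and under 13 of 14 alternatives. The exception was the SAM-type statistic at a 1% false discovery rate and 1.5-fold. The 3 other alpha genes measured did not pass: Itga1, a collagen receptor chain, at -0.095, Itga3, a laminin receptor chain, at 0.085 and Itga5, the fibronectin receptor chain, at 0.14. Their arrays lay on both sides of 0.

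The beta chains showed no shared direction, with 0 of 4 past the threshold and a median of 0.01. Itgb1, the partner of all 4 alpha chains named above, lay at -0.11, 0.20, -0.08 and -0.23. Itga9 exceeded Itgb1 on 4 of 4 arrays, by 0.69 on average (SD 0.11, n = 4). A two-sided exact permutation test over arrays gave p = 0.125, the smallest that 4 arrays allow. Itgb4, which joins epithelial cells to laminin in hemidesmosomes, lay at -0.63, -0.69, 0.06 and 0.06. Replicates 1 and 2 were low and the others near 0, so its mean of -0.30, the lowest of all 45 genes, had a limma adjusted p = 0.21. Itgb5, a vitronectin receptor chain, averaged 0.07 and Itgb3bp 0.08, neither past the threshold.

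Of the 10 basement membrane genes, Lamb1 passed above 0 and the other 9 did not pass. The group had a median of 0.02, with 6 means above and 4 below 0. Lamb1, which encodes a beta chain shared by several laminin trimers, lay at 0.46, 0.48, 1.19 and 0.29. Replicate 3 was far above the others, and the mean was 0.61 (SE 0.15, n = 4, limma adjusted p = 0.031). Without replicate 3 it was 0.41 and did not pass (adjusted p = 0.083), nor did it without replicate 1 (0.058) or 2 (0.061). The chains that assemble with it lay near 0 or below it. Lama1, an alpha chain, lay at -0.10, -0.09, -0.41 and -0.27, below 0 on every array, with a mean of -0.22 (SE 0.11, limma adjusted p = 0.19). Lamc1, the gamma chain of most laminins, lay at 0.08, 0.14, 0.03 and 0.10, with a mean of 0.08 (limma adjusted p = 0.59). That is the average of 3 probes with means of 0.01, 0.29 and -0.05. Lamb1 exceeded Lama1 by 0.82 (SD 0.52) and Lamc1 by 0.52 (SD 0.44), each on 4 of 4 arrays (exact permutation p = 0.125 for both). Lama3 averaged -0.18 and Lama5 0.05, with arrays of both signs.

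The nidogens and type IV collagens did not pass, and Nid2 was the furthest from 0. Nid2, which links laminin to type IV collagen, lay at 0.18, 0.22, 0.52 and 0.49, above 0 on all 4 arrays, with a mean of 0.35 that did not pass (SE 0.11, limma adjusted p = 0.061). With the median log ratio of neighbouring spots subtracted, taken in deposited row order and not by array position, the Nid2 mean was 0.12 (adjusted p = 0.33). Its paralog Nid1 lay at 0.11, 0.04, 0.20 and -0.34 and averaged 0.00. Nid2 exceeded Nid1 by 0.35 (SD 0.33) on 4 of 4 arrays, with an exact permutation p = 0.125. Col4a1 and Col4a2, which form the common type IV trimer and lie side by side on chromosome 8 with 0 protein-coding genes between them, averaged 0.03 and -0.13. Col4a1 was the higher on 3 of 4 arrays (exact permutation p = 0.25). Col4a5, X-linked, lay at -0.19, -0.20, 0.56 and -0.27, so that replicate 3 alone was above 0.

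Among the 6 fibrillar collagen genes Col1a1 passed above 0, 3 means were above and 3 below 0, and the median was -0.03. Col1a1, which encodes the major chain of type I collagen, lay at 0.64, 0.37, 0.26 and 0.35. All 4 arrays were above 0 and the mean was 0.41 (SE 0.11, n = 4, 95% interval 0.17 to 0.64, limma adjusted p = 0.039). Its margin was thin, as it did not pass without any 1 of the 4 replicates (adjusted p = 0.073 to 0.14). After subtraction of the median log ratio of neighbouring spots in deposited row order it lay at 0.18 (adjusted p = 0.25). Col1a2, the other chain of the same collagen, lay at 0.17, 0.36, -0.08 and -0.10. Col1a1 exceeded it by 0.32 (SD 0.21) on 4 of 4 arrays, but on replicate 2 by 0.02 only (exact permutation p = 0.125).

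Type V collagen, which nucleates fibrils, lay on the other side. Col5a2 lay at -0.10, -0.27, -0.67 and -0.09, with a mean of -0.28 (SE 0.12, limma adjusted p = 0.15). Col5a3 lay at -0.26, -0.09, -0.37 and -0.28, with a mean of -0.25 (SE 0.10, limma adjusted p = 0.13). Both were below 0 on every 15-day array, and neither passed. As deposited, Col5a2 also lay below 0 on all 5 arrays at 12 days, in both dye orientations. Col5a3 lay at -0.95 and -0.53 on 12-day replicates 1 and 2, of opposite orientations, and had no other value at that age. Col3a1, a neighbour of Col5a2 on chromosome 1 with 0 protein-coding genes between them, lay at 0.22, 0.01, 0.51 and 0.15, above 0 on every array, with a mean of 0.22 (limma adjusted p = 0.21). Col2a1, the cartilage collagen, averaged -0.16 and did not pass.

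The other collagens included 6 means above and 2 below 0, a median of 0.16 and 0 genes past the threshold. Col18a1, a basement membrane collagen whose end fragment is endostatin, lay at 0.43, 0.43, 0.25 and 0.20, with a mean of 0.33 (SE 0.10, limma adjusted p = 0.065), or 0.14 with 1 probe per gene (adjusted p = 0.43). Col6a1, which forms beaded filaments, lay at 0.25, 0.45, 0.29 and 0.11, with a mean of 0.28 (limma adjusted p = 0.11). Both were above 0 on every array. Col6a4 and Col6a5, other type VI chains, averaged 0.18 and 0.21, and each had 1 array below 0. Col9a3, Col12a1, Col14a1 and Col22a1 had means of -0.04 to 0.14 and arrays of both signs.

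The glycoproteins and small proteoglycans were flat, with 0 of 4 past the threshold. Fn1, which encodes fibronectin, lay at 0.17, -0.07, -0.15 and -0.01, with a mean of -0.02 (SE 0.10, 95% interval -0.25 to 0.22). Sparc, a collagen-binding glycoprotein made by Sertoli and Leydig cells, lay at -0.28, 0.17, 0.10 and -0.03, with a mean of -0.01 (SE 0.11, 95% interval -0.26 to 0.24). The small proteoglycan genes Dcn and Bgn averaged 0.06 and 0.15 (limma adjusted p = 0.71 and 0.42). Bgn, X-linked, lay at -0.06, 0.29, -0.03 and 0.38, with replicates 2 and 4 the higher ones. Dcn lay at -0.07, 0.20, -0.02 and 0.14 and followed the same split, so that the difference between them was 0.08 (SD 0.11, exact permutation p = 0.38). Fbln2, the fibulin measured, lay at 0.26, -0.20, 0.06 and 0.03 and averaged 0.04.

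All 3 Timp genes lay above 0 on all 4 arrays, with a median of 0.39, and Timp2 and Timp3 passed. Timp2, a soluble inhibitor that also takes part in activating the Mmp2 enzyme, lay at 0.01, 0.67, 0.76 and 0.48. Replicate 1 was near 0 and the other arrays high, for a mean of 0.48 (SE 0.13, n = 4, limma adjusted p = 0.046). Without replicate 1 it passed, at 0.64, but it did not without replicate 2 (adjusted p = 0.14), 3 (0.16) or 4 (0.097). Timp3, which binds to the matrix, lay at 0.57, 0.56, 0.28 and 0.17. Replicates 1 and 2 were the higher ones, and the mean of 0.39 (SE 0.11, n = 4, limma adjusted p = 0.049) did not pass without any 1 of the replicates (adjusted p = 0.051 to 0.15). Timp4 lay at 0.60, 0.06, 0.12 and 0.20, with a mean of 0.25 (limma adjusted p = 0.19), and replicate 1 alone was far from 0.

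Of the 4 metalloproteinase genes Mmp23 passed above 0. Mmp23, a membrane-anchored enzyme found in gonads, lay at 0.71, 0.49, 0.58 and 0.02. Replicate 4 was near 0 and the others were high, for a mean of 0.45 (SE 0.13, n = 4, limma adjusted p = 0.048). Without replicate 4 it passed at 0.59, and it did not without replicate 1, 2 or 3 (adjusted p = 0.12 to 0.15). Mmp2, the gelatinase that degrades type IV collagen, lay at -0.08, -0.27, -0.44 and -0.07, below 0 on every array, with a mean of -0.22 (SE 0.11, limma adjusted p = 0.21). Timp2 exceeded Mmp2 by 0.70 (SD 0.48) on 4 of 4 arrays, with an exact permutation p = 0.125. Mmp7, matrilysin, averaged 0.33 with replicate 4 at -0.30, and the other gelatinase gene Mmp9 averaged -0.16. Neither of these passed. The 8 pairs of related genes compared were chosen with results known, and 0.125 is the smallest exact permutation p for each of them, adjusted for nothing.

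Knockout RNA carried Cy3 on every 15-day array, so dye bias of single genes is part of these ratios. A joint fit of both ages used the dye term that the 12-day arrays estimate, with both ages read as Cy5 over Cy3. There Itga9, Lamb1, Timp3 and also Col3a1 passed above 0, 4 of 37 genes tested. Of all 6144 genes tested in that fit, 160 passed above 0 and 320 below. With the 15-day sign turned, the same dye term would shift each value the other way, and that fit was not run. Which genes would gain or lose the call under that reading was thus not tested. In the joint fit that was run, Timp2 moved to 0.25 (adjusted p = 0.35) and Col1a1 (0.43, adjusted p = 0.11) and Mmp23 (0.65, adjusted p = 0.085) no longer passed. The number of genes past the threshold was 2 without replicate 1 (Itga9 and Timp2), 1 without replicate 2 or 3 (Itga9) and 4 without replicate 4 (Itga9, Lamb1, Mmp23 and Mmp7). Without replicates 1 to 4 in turn, 97 of 6849, 97 of 6730, 57 of 6735 and 204 of 6735 of all genes passed above 0. Below 0 the counts over all genes were 221, 189, 142 and 413, and 0 matrix and integrin genes passed there.

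Different probes of a gene did not always give the same value. Of 12 genes with more than 1 probe measured at 15 days, 7 had probe means of both signs, with a median spread between probes of 0.21. The spread was smallest for Timp3, whose probes averaged 0.40 and 0.42, and widest for Lamb1, at 0.27, 0.71 and 0.84. The middle Lamb1 probe lay at -0.06, -0.18, 2.38 and 0.70, so it alone carried the high value of replicate 3. With 1 probe per gene, Lamb1 did not pass (0.71, adjusted p = 0.17), nor did Timp3 (0.42, adjusted p = 0.060). Itga9, Timp2, Mmp23 and Col1a1 each rest on 1 probe. Probes of Col3a1 averaged 0.01 to 0.41 and those of Col18a1 0.14 to 0.51, whereas those of Sparc lay between -0.07 and 0.09. Those of Lamc1 averaged -0.05 to 0.29, although the average over its probes had the smallest SD over arrays. Cross-hybridisation among related collagen and laminin sequences was not tested.

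**Figure D2:**
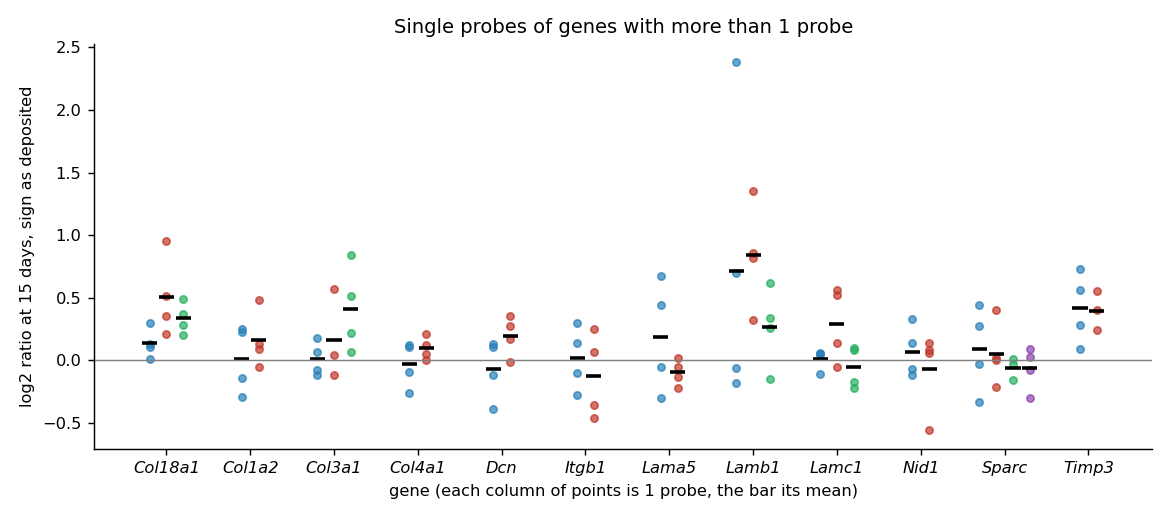
Log2 ratios at 15 days (y axis, sign as deposited) of single probes of genes with more than 1 probe (x axis). Each column of points is 1 probe on up to 4 arrays, and its bar is the mean. Timp3 probes averaged 0.40 and 0.42, while 1 Lamb1 probe reached 2.38 on replicate 3.

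Other genes of matrix and adhesion passed at 15 days about as often as all genes did. Of 21 other matrix proteins 1 passed above 0 and 2 below, with a median of -0.02. The microfibril gene Mfap2 lay at 0.51 (SE 0.11), the small proteoglycan gene Lum at -0.57 (SE 0.13) and the tenascin gene Tnc at -0.45 (SE 0.11). Of 23 matrix processing enzymes 2 passed above and 1 below, with a median of 0.07. These were the membrane proteases Adam10, at 0.85 (SE 0.14), and Adam15, at 0.56 (SE 0.10), and P4hb, a subunit of the collagen prolyl hydroxylase, at -0.39 (SE 0.11). Of 27 adhesion adaptors, which link integrins to the cytoskeleton, or co-receptors, 0 passed above and 1 below, with a median of 0.01. That gene was the syndecan Sdc1, a matrix co-receptor, at -0.44 (SE 0.10). The largest limma adjusted p of these 7 genes was 0.0495, that of P4hb. Over the 3 lists, 3 of 71 genes (4.23%) passed above and 4 of 71 (5.63%) below 0, close to the 4.04% and 7.2% of all genes.

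Cell type markers were set beside these values. Of 9 Sertoli cell markers 0 passed, with means of -0.32 to 0.46 and a median of -0.01. Of 6 peritubular and fibroblast markers, Lum passed below 0 and the median was 0.07. Among 5 Leydig cell markers the steroidogenic factor gene Nr5a1 passed above 0 (0.43), among 4 endothelial and blood markers Cdh5 did (0.78), and among 4 macrophage markers Lyz2 passed below (-0.61). Of 5 pachytene spermatocyte markers 4 passed below 0, namely Slc2a3, Rsph1, Lyar and Ccnb1ip1, while Mns1 lay at -0.13 and did not. The median of the list was -1.38, -1.97, -1.74 and -0.99 on the 4 arrays. Spermatogonial markers lay the other way, with 3 of 9 past the threshold above 0 and array medians of 0.37, 0.36, 0.19 and 0.32. The medians of both germ cell lists lay further from 0 on every 15-day array than that of the matrix and integrin genes. Both lists were chosen with earlier results of these data known, so this distance is no independent measure. The part of these cell types in the values of the matrix and integrin genes was not tested.

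**Figure D3:**
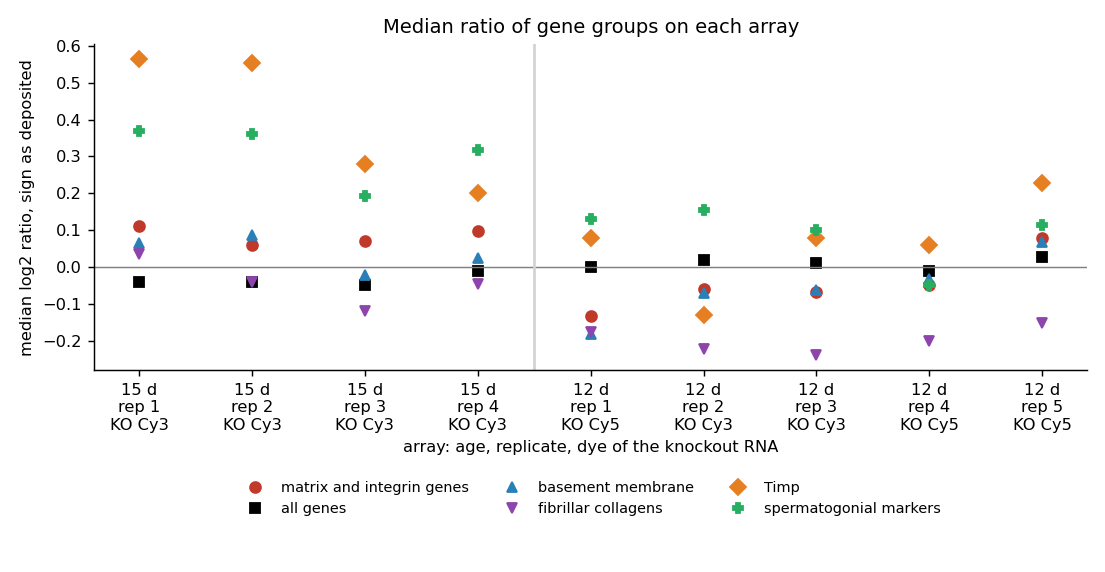
Median log2 ratio (y axis, sign as deposited) of gene groups on each of the 9 arrays (x axis, with age, replicate and the dye of the knockout RNA). At 15 days the matrix and integrin genes sit between 0.06 and 0.11 and the spermatogonial markers between 0.19 and 0.37.

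At 12 days, when fewer spermatocytes have reached late prophase, 0 of 38 matrix and integrin genes passed, as did 0% of the 6237 genes tested. At an unadjusted p under 0.05 in limma there was 1 gene, or 2.63%, against 1.92% of all genes, and the SAM-type statistic also passed 0 of the 38. The median was 0.03 and that of all genes -0.01, with means of -0.26 to 0.37, of which 24 were above and 14 below 0. Col6a1 was the gene with 1 sign on every array as knockout over wild type. That is 2.63% of the 38, against 5.27% of all genes. Col6a1 lay at 0.02, 0.04 and 0.37 with knockout RNA in Cy5 and at 0.07 and 0.16 with it in Cy3, with a mean of 0.13 (SE 0.09).

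Timp2 was the gene with an unadjusted p under 0.05 at 12 days. With knockout RNA in Cy5 it lay at 0.36, 0.46 and 0.54, and as knockout over wild type with it in Cy3 at 0.08 and -0.08. Arrays with the knockout in Cy5 were all above those with it in Cy3. The fitted knockout over wild-type value was 0.23 (SE 0.08, limma adjusted p = 1.0). The highest value was that of Col6a5, at 0.37 (SE 0.21), and the lowest that of Itgb4, at -0.26 (SE 0.11), neither past the threshold. Itga9 lay at -0.04 (SE 0.10, 95% interval -0.28 to 0.21), so a change at 12 days of the size seen at 15 days lies outside this interval in either direction. Lamb1 lay at 0.09 (95% interval -0.12 to 0.31), Timp3 at -0.03 (-0.22 to 0.17), Col1a1 at 0.12 (-0.14 to 0.39) and Mmp23 at 0.24 (-0.13 to 0.60). Of these, the interval of Mmp23 includes its 15-day size of 0.45. The 15-day sizes include any dye bias of a gene, whereas the 12-day values were fitted beside a dye intercept, so these are unlike measures.

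With signs as deposited, more 12-day values lay below 0. The medians of the matrix and integrin genes were -0.13, -0.06, -0.07, -0.05 and 0.08 on replicates 1 to 5, against 0.00, 0.02, 0.01, -0.01 and 0.03 for all genes. Replicate 5 was the array above 0. Col3a1, Col4a5, Col5a2 and Timp3 lay below 0 on all 5 arrays in both dye orientations, or 10.5% of the 38 against 6.01% of all genes, and Col4a2 above 0 on all 5, or 2.63% against 7.33%. Col3a1 lay at -0.18, -0.22, -0.58, -0.20 and -0.39 and Col5a2 at -0.58, -0.38, -0.09, -0.37 and -0.20. Read as Cy5 over Cy3, such a gene has opposite knockout signs in the opposite orientations. The dye coefficient of limma passed for 0 of the 38 genes, as for 0 of all 6237 genes, so this count does not set them apart. Its median was -0.05, against 0.006 for all genes. Fbln2 lay at -0.89, -0.64, -0.40 and -0.65 on replicates 1 to 4 but at 0.49 on replicate 5.

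**Figure D4:**
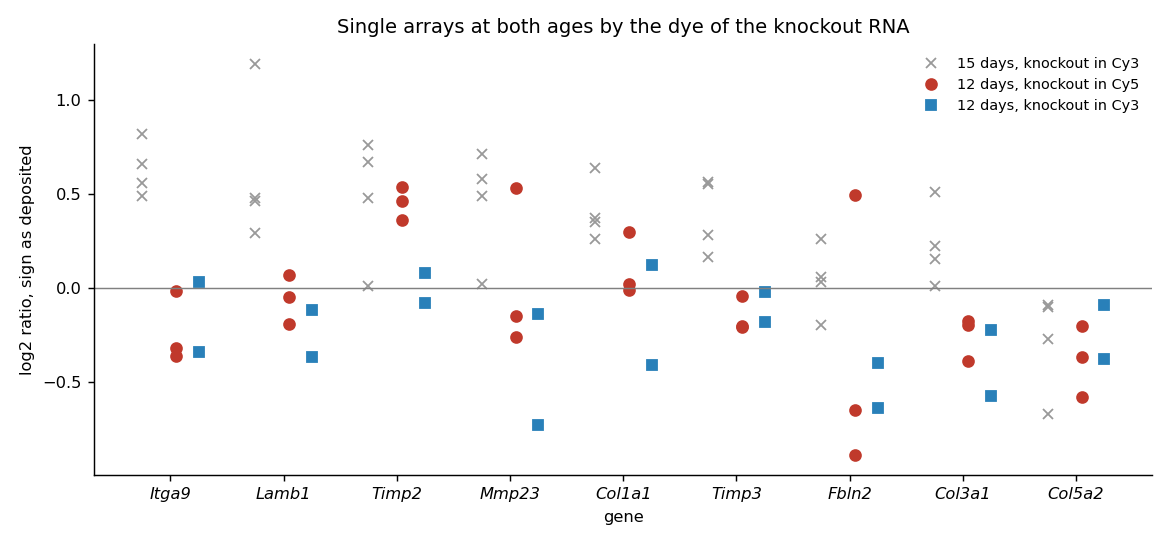
Log2 ratios (y axis, sign as deposited) of 9 matrix and integrin genes (x axis) on single arrays, as crosses at 15 days and as circles or squares at 12 days for knockout RNA in Cy5 or Cy3. Itga9 lies between 0.49 and 0.82 at 15 days and between -0.36 and 0.03 at 12 days, while Col5a2 lies below 0 on all 9 arrays.

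Whether the effect differed between the ages was estimated in 1 limma model of all arrays, in which 12-day replicates 2 and 3 are the counterpart of the 4 arrays of 15 days. The arrays with knockout RNA in Cy5 enter the spread alone. With both ages read as Cy5 over Cy3, 1 of 37 genes differed, or 2.7%, against 2.28% of all 6144 genes tested. It was Itga9, whose knockout over wild-type ratio was lower at 15 days by a log2 difference of -0.79 (SE 0.18, limma adjusted p = 0.0499). In deposited signs, its 4 values at 15 days (0.49 to 0.82) all exceeded those of 12-day replicates 2 (0.03) and 3 (-0.34). The call was at the edge of the threshold. It was lost without any 1 of the 15-day replicates and without 12-day replicate 2, 3 or 4, with adjusted p = 0.058 to 0.31, and passed without 12-day replicate 1 or 5.

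The median difference of the 37 genes under this reading was -0.17, against 0.04 for all genes. The lowest difference was that of Col6a5 at -0.99 (SE 0.36, limma adjusted p = 0.17), followed by Mmp23 at -0.89 (SE 0.27, adjusted p = 0.11). The highest were Mmp9 at 0.46 (SE 0.21, adjusted p = 0.26) and Itgb4 at 0.40 (SE 0.26, adjusted p = 0.41). None of these passed. With the 15-day sign turned, 0 of 37 genes differed by limma, as did 0% of all genes, with 3 (8.11%) at an unadjusted p under 0.05, against 6.07% of all genes. Itga9 then differed by 0.48 (limma adjusted p = 0.74), and the median was near 0. The sign of the Itga9 difference between the ages thus depends on the reading of the 15-day arrays.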

How the data were processed

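The values are log ratios of 2-colour cDNA arrays, and log2 was assumed as the base of the deposited values. The authors used a GenePix 4000A scanner, GenePix 3.0 with its default flags and median centring to make the deposited ratios, per the series' design text, and called genes with SAM (false discovery rate 1%, 1.5-fold). The base, the background correction and the ratio's direction are not given in the sources.

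The platform annotation gave exactly 1 gene for 9604 of 16128 probes, several for 213 and none for 6311. A further 6 probes with several symbols, 1 of them in these families, were left out. Probes of a gene were averaged on each array. Ratios were tested with limma 3.58.1 (lmFit, eBayes, two-sided) in R 4.3.3, adjusted by Benjamini-Hochberg over all features with a threshold of 0.05. At 15 days the mean was tested against 0 (at least 3 values), at 12 days a knockout coefficient beside a dye intercept (at least 4 values, both orientations). Fits were tested on simulated arrays. Pairs of genes were compared by exact permutation over arrays with SciPy 1.17.1.

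Genes named are those past the threshold, the 8 highest and 8 lowest of 1 sign on every array, Fn1, Sparc, Dcn, Bgn, the gene of smallest p in each role, and for the age difference the 2 highest and 2 lowest. Others were named after their values were seen, among them Itga1, Itga3, Itga5, Itgb1, Itgb5, Itgb7, Lama3, Lama5, Nid1, Col1a2, Col2a1, the type IV chains, the other collagens with arrays of both signs and Mmp7. Members, roles, lists and tests were chosen with earlier results of these data known. Alternatives left out each array in turn, or changed the centring, the scale (also by quantiles), the values required, the probes per gene, the empirical Bayes step (robust), the threshold, the statistic (SAM-type), the dye term, the block (title numbers) or the ratio's direction. A further alternative subtracted the median log ratio of the 100 probes on each side in deposited row order. These are called neighbouring spots, but no array positions or background intensities were used. The precision is limited by the number of arrays.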

Additional observations from a re-analysis of the deposited data

Results flagged for a closer look

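At 15 days, 1 of 45 matrix and integrin genes had an array far from the rest of its group: Col4a5 lay at 0.56 on replicate 3, against -0.27 to -0.19 on the others. At 12 days 5 of 38 genes did, as knockout over wild type. Replicate 5 stood apart for Col6a4 (0.603), Itga2b (0.473), Itgb5 (-0.461) and Nid1 (-0.401), and replicate 1 for Col9a3 (0.49). Chance flags about 1 in 20 groups in this way. The difference of Itga9 between the ages, -0.79 with both ages read as Cy5 over Cy3, passed the test of the difference itself, and it lay at 0.48 and did not pass with the 15-day sign turned.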

How the results depend on the processing

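No paired analysis was possible because the labels give no replicate numbers. Across alternatives at 15 days, for the genes that the naming rule chose, 211 values kept their direction and side of the threshold, 36 no longer passed, 2 newly passed (Nid2 and Col18a1, with arrays centred on genes) and 15 changed sign. Of the genes named after their values were seen, Col3a1 passed in the joint dye fit and Mmp7 without replicate 4. The count of genes above 0, 6 as reported, was 1 at an adjusted p under 0.01 with 1.5-fold, 0 with the SAM-type statistic and 1 to 4 without 1 replicate. Of all 6958 genes tested, 281 passed above and 501 below 0 as reported. At the stricter threshold 32 and 97 did, and with the SAM-type statistic 16 and 43. The median was 0.11 with arrays centred on genes and 0.14 in the joint dye fit. Most values that changed sign were of genes near 0. Fn1 lay at 0.020 centred on genes, 0.17 with neighbouring spots subtracted, 0.082 in the joint dye fit and -0.077 to 0.030 without 1 replicate. Sparc lay at 0.025 centred on genes, 0.088 with 1 probe per gene, 0.034 in the joint dye fit and -0.069 to 0.080 without 1 replicate. Dcn lay at -0.068 with 1 probe per gene, and Bgn at -0.089 and Fbln2 at -0.051 with neighbouring spots subtracted. Without 1 replicate Fbln2 lay at -0.037 to 0.12 and Itgb3bp at -0.020 to 0.15. Col5a2 lay at 0.027 in the joint dye fit. All 17 alternatives at 12 days left 0 genes past the threshold. For the age difference under the label reading, 1 gene passed as reported (Itga9), 3 with arrays scaled (Col3a1, Col6a5 and Lamb1, with Itga9 at adjusted p = 0.052), 4 after quantile normalization (these and Itga9), 2 with neighbouring spots subtracted (Itga9 and Lamb1), 0 with 1 probe per gene, with robust empirical Bayes, at the stricter threshold or with the 15-day sign turned, and 0 to 2 without 1 replicate. The counts over all 6144 genes also rose under 3 of these settings. As reported 101 differed above 0 and 39 below. These were 244 and 103 with arrays scaled, 388 and 138 after quantile normalization, and 237 and 81 with neighbouring spots subtracted. With the sign turned the median was -0.005, Itga9 lay at 0.48, Mmp23 at 0.015 and Itgb4 at -0.20, and without 1 replicate Mmp23 lay at -0.28 to 0.31 and Mmp9 at -0.045 to 0.34. The cause of these shifts was not tested. Without intensities, signal over background is unknown.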
